A study of Mus musculus with 16 samples.

Results

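The dual-specificity MAP kinase phosphatases were followed through the response of mouse monocytes to IFN-γ plus CD40L. Their 8 genes, Dusp1, Dusp2, Dusp4, Dusp5, Dusp6, Dusp7, Dusp10 and Dusp16, were chosen by symbol from the 13085 genes of the deposited table, and all 8 were listed and passed the filter on low values. The table holds 16 RNAseq libraries of monocytes from C57BL/6 mice, either NFAM1+/+ or carrying a CRISPR deletion of exons 2 and 3 of Nfam1, written here as NFAM1-/-. Cells were left unstimulated or received IFN-γ followed by a multimeric CD40L, and RNA was taken after 6 or 24 h of culture. At 6 h each genotype had 2 unstimulated and 2 stimulated libraries. At 24 h there were 4 unstimulated and 4 stimulated libraries, but for 4 of these 8 the title and the genotype tag name different genotypes. The 24 h groups were therefore tested with the genotypes together, and genotype at 24 h is given as values only. The deletion is carried in every cell of the animals, and the labels do not tie libraries to mice. The study describes fewer mice than there are libraries, so libraries may share an animal, and the p-values measure the spread between these libraries, which may be technical. The 24 h groups hold both genotypes under either reading of the labels, so their spread can include genotype differences. They supply 6 of the 10 residual degrees of freedom of the model, so this spread also enters the tests at 6 h.

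MAP kinases are switched on by phosphorylation of a threonine and a tyrosine in their activation loop, and the dual-specificity phosphatases remove both phosphates. By textbook grouping, Dusp1, Dusp2, Dusp4 and Dusp5 encode nuclear enzymes whose genes respond quickly to stimuli, Dusp6 and Dusp7 encode cytoplasmic enzymes that prefer ERK, and Dusp10 and Dusp16 encode enzymes that prefer JNK and p38. In monocytes and macrophages they are known as feedback brakes on ERK, JNK and p38 after inflammatory signals, and transcripts of several of them are themselves raised by those kinases.

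The libraries held 48295939 to 88514341 reads on the listed genes, and each phosphatase had between 143 and 13865 reads in each library. Values are CPM, reads scaled to a common library size, on the deposited scaling, in which the sum of reads over the scaled library size was 0.756 to 0.788 without a stimulus, 1.24 to 1.316 after 6 h of stimulation and 0.970 to 0.997 after 24 h of it. Nfam1 itself, counted over the whole gene, measured 432 and 408 CPM in the unstimulated NFAM1+/+ libraries of 6 h, and the NFAM1-/- libraries held 299 and 321 CPM. In stimulated libraries at 6 h it was at 133 and 129 CPM against 135 and 127 CPM. At 24 h it was at 441, 463, 495 and 391 CPM in unstimulated libraries 43, 44, 45 and 46. Stimulated libraries 55, 56, 57 and 58 held 201, 271, 252 and 223 CPM. Read by title, the NFAM1-/- libraries of 24 h were the lower ones in both conditions, and read by genotype tag the genotypes overlapped. By title, 45.4% and 48.2% of all genes also did not overlap. A count over all exons includes those that the deletion leaves, so these values do not check the genotype labels. All 7 monocyte markers (Csf1r, Ly6c2, Ccr2, Itgam, Lyz2, Fcgr1 and Cd14) were listed, with a summed level that ran at 6 h from 21360 to 23490 CPM without and from 7977 to 9901 CPM with the stimulus, and at 24 h from 25470 to 29310 and from 8180 to 11410 CPM. Lyz2 made up most of the sum without a stimulus, and the markers did not move together. At 6 h Lyz2 ran from 15690 to 17380 CPM without and from 2667 to 4159 CPM with the stimulus, while Ly6c2 ran from 345 to 503 and from 2200 to 2505 CPM, and Fcgr1 from 28.0 to 35.9 and from 620 to 760 CPM. All 6 neutrophil markers were listed and moved with time and stimulus, with sums at 6 h of 29.8 to 107 CPM without and 29.7 to 164 CPM with the stimulus, and at 24 h of 296 to 517 and 71.5 to 122 CPM. The B cell markers Cd79a, Cd79b and Ighm were listed, while Ms4a1 was not, and their sum also moved with time and stimulus. It ran from 134 to 153 CPM without and from 311 to 371 CPM with the stimulus at 6 h. At 24 h it ran from 127 to 198 and from 34.5 to 42.4 CPM. Ighm made up most of this sum, and at 6 h Cd79a and Cd79b went the other way. Cd79b ran from 3.44 to 3.90 CPM without and from 0.44 to 0.91 CPM with the stimulus. Cd79a ran from 0.81 to 1.22 and from 0.35 to 0.67 CPM. Of 5 T cell markers only Cd4 and Cd8a were listed, at a sum of at most 6.81 CPM, none of the 3 NK cell markers was listed, and 2 of 3 erythroid markers summed to at most 34.9 CPM. The part of these other cells in the results below was not tested. In bulk RNA, fewer cells of a type and less RNA per cell cannot be told apart.

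The phosphatases split into a rising and a falling set at both times. A gene was called where it moved 2-fold or more with an adjusted p under 0.05. At 6 h, 7 of the 8 were called, against 39.6% of all 12782 genes tested. Dusp2, Dusp4, Dusp5, Dusp10 and Dusp16 rose, and Dusp6 and Dusp7 fell. At 24 h 5 of the 8 were called, against 33.3% of all genes, with Dusp5, Dusp10 and Dusp16 higher and Dusp6 and Dusp7 lower. The median log2 fold change of the 8 was 1.34 at 6 h and 0.72 at 24 h, beside -0.13 and 0.01 over all genes tested. None of the 12 called responses changed direction in any of 323 alternative values, but many of those values could not differ. Another filter, prior or grouping, or a library left out at the other time, leaves the fold change as it was. Of the called responses, 4 fell below the fold threshold when each library was scaled to its own total of reads. Scaled in that way, the median of all genes was at -0.86 at 6 h and -0.33 at 24 h, and the share of called genes that were higher was 21.9% in place of 48.1% at 6 h and 30.4% in place of 43.9% at 24 h.

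**Figure D1:**
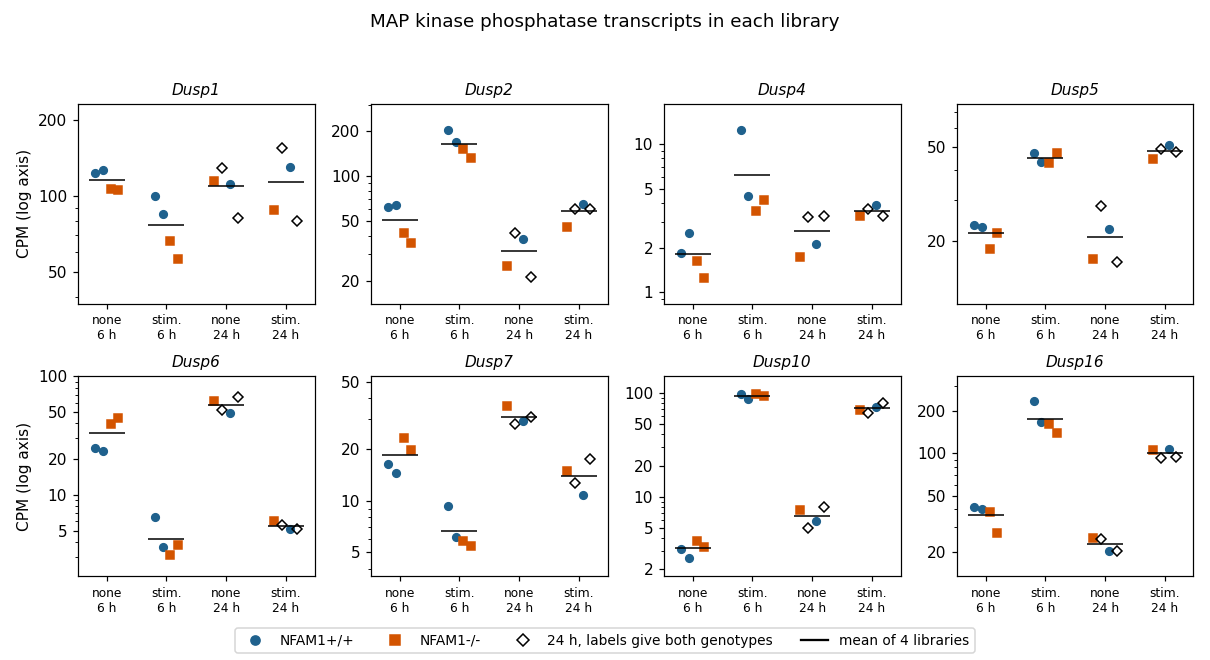
CPM on a log axis (vertical) in each of the 16 libraries, by stimulus and time (horizontal), with 1 panel per gene. Circles and squares are libraries whose labels give 1 genotype, open diamonds are the 24 h libraries whose labels give both, and lines are means of 4 libraries; stimulated and unstimulated libraries do not overlap in any panel at 6 h, and at 24 h they overlap in the Dusp1 panel.

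The sequences just upstream of the annotated starts are shown for the strongest riser (Dusp10) and the strongest faller (Dusp6). They are also shown for the 3 genes in which a searched motif was found (Dusp1, Dusp2 and Dusp5). RefSeq promoters of GRCm38.p6 matched 7 of the 8 genes, all but Dusp4. Each run gives the 200 bases before the start, 5′ to 3′ on the strand of the gene, and capitals mark motif matches.
Dusp10, chr1:184034181-184034380, plus strand: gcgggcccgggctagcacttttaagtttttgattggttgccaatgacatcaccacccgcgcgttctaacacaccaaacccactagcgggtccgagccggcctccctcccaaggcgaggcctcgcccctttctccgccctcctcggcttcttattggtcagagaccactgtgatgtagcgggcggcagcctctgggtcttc
Dusp6, chr10:99263031-99263230, plus strand: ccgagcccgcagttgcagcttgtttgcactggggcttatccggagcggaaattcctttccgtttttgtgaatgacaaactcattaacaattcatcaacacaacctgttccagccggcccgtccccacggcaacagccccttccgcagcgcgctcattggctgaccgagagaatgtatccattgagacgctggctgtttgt
Dusp1, chr17:26508473-26508672, minus strand: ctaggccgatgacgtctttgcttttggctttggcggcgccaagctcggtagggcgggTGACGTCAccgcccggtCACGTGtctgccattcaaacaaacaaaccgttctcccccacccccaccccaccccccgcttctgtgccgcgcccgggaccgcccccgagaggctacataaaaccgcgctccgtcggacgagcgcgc
Dusp2, chr2:127335959-127336158, plus strand: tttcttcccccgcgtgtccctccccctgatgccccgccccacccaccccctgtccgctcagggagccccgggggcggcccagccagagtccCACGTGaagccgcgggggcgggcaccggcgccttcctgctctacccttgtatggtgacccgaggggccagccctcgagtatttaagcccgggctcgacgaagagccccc
Dusp5, chr19:53528945-53529144, plus strand: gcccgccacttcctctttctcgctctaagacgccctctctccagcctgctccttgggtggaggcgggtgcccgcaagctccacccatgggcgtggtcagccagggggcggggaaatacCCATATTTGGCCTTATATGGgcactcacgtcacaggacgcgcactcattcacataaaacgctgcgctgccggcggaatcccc

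Motifs were searched on both strands over windows of 300 bases, 250 before to 50 after the start. The cAMP response element TGACGTCA was found in Dusp1 from -143 to -136, counted from the start, and in 1.79% of all 32851 promoters. The E-box CACGTG was found in Dusp1 from -126 to -121 and in Dusp2 from -109 to -104, and in 7.15% of all promoters. Dusp5 held a pair of adjoining CArG boxes, the site of serum response factor, from -82 to -73 and from -72 to -63, and 1.63% of all promoters held at least 1 CArG box. The AP-1 site TGANTCA (7.81% of all promoters), the gamma-activated site TTCNNNGAA (8.30%), the core of the interferon-stimulated response element GAAANNGAA (8.56%) and the NF-κB consensus (4.51%) were found in none of the 7 windows. Dusp6, Dusp7, Dusp10 and Dusp16 held no match to any of these motifs. A match or its absence describes these letters in this window, and the start used in monocytes was not measured.

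Dusp10, which encodes MKP-5, an inactivator of JNK and p38, rose more than any other of the 8 genes. At 6 h its level was 3.16, 2.57, 3.76 and 3.29 CPM in unstimulated libraries and 97.7, 89.0, 97.9 and 94.5 CPM in stimulated libraries. The ranges lie far apart, and the stimulated libraries of both genotypes sit close together. The rise was 29.9-fold (log2 4.90, SE 0.13, adjusted p 2.49e-14, limma). At 24 h Dusp10 was at 7.44, 5.03, 5.84 and 7.89 CPM unstimulated and at 68.4, 65.1, 73.8 and 81.1 CPM stimulated. That rise was 11.2-fold (log2 3.48, SE 0.13, adjusted p 2.41e-12).

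Dusp16 encodes MKP-7, which also prefers JNK and p38. At 6 h it was at 41.7, 40.1, 38.1 and 27.0 CPM in unstimulated and at 236, 167, 163 and 139 CPM in stimulated libraries, with library 26 the highest. The rise was 4.77-fold (log2 2.25, SE 0.12, adjusted p 1.56e-10), and it was 2.13 on the log2 scale without library 26. At 24 h the 4 unstimulated libraries held 25.1, 24.9, 20.4 and 20.2 CPM and the 4 stimulated libraries 106, 93.0, 107 and 93.7 CPM, again without overlap. The difference was 4.43-fold (log2 2.15, SE 0.12, adjusted p 3.90e-10). Both genes of the JNK and p38 branch thus rose at both times, on every scaling tried.

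**Figure D2:**
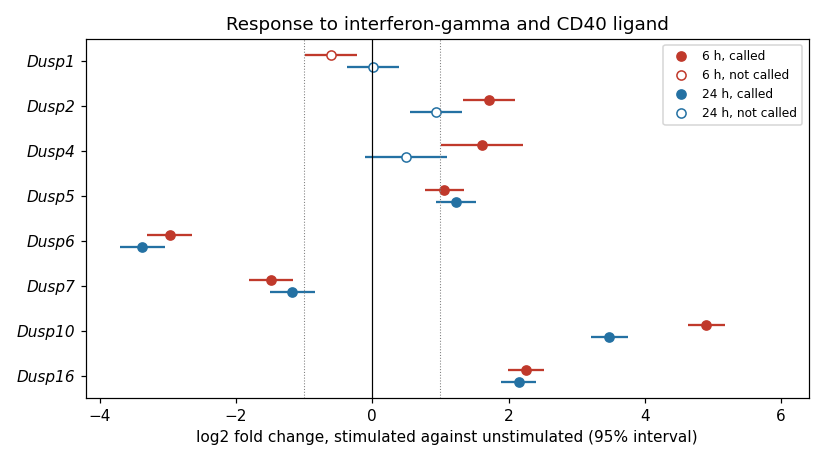
Fitted log2 fold change of stimulated against unstimulated libraries (horizontal) for each gene (vertical) at 6 and 24 h, with lines for 95% intervals, filled points for called genes and dotted lines at a fold change of 2. Dusp10 and Dusp16 lie to the right at both times, Dusp6 and Dusp7 to the left, and the Dusp1 and Dusp4 intervals at 24 h include 0.

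Among the nuclear phosphatases, Dusp2 (PAC-1, an enzyme of activated leukocytes) rose at 6 h. Its level was 62.5, 63.9, 41.4 and 35.8 CPM in unstimulated and 203, 170, 152 and 131 CPM in stimulated libraries. The stimulated libraries were all above the unstimulated ones, by 3.29-fold on average (log2 1.72, SE 0.18, adjusted p 3.83e-07). At 24 h Dusp2 was at 24.9, 41.4, 38.1 and 21.0 CPM unstimulated and 45.9, 60.2, 65.4 and 60.4 CPM stimulated. The groups again did not overlap, but the fold of 1.91 (log2 0.93, SE 0.18, adjusted p 0.000253) was under the 2-fold threshold. It passed that threshold without library 44, 45 or 55, at log2 1.04 to 1.09.

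Dusp5, a nuclear phosphatase selective for ERK, was raised at both times by a similar factor. It was at 23.5, 23.0, 18.6 and 21.7 CPM unstimulated and 47.3, 43.1, 42.9 and 47.1 CPM stimulated at 6 h, and at 16.8, 28.2, 22.4 and 16.3 CPM against 44.3, 49.1, 50.8 and 47.8 CPM at 24 h. The stimulated libraries lay in a narrow band above all unstimulated ones. The rise was 2.08-fold at 6 h (log2 1.06, SE 0.14, adjusted p 3.61e-06) and 2.35-fold at 24 h (log2 1.23, SE 0.14, adjusted p 8.14e-07). With libraries scaled to their own totals of reads it was 0.33 and 0.90 on the log2 scale and no longer called at either time.

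Dusp4, or MKP-2, had the lowest mean level per kb of the 8 in every condition except stimulated cells at 6 h, where the means of Dusp6 and Dusp7 were lower and their libraries overlapped with those of Dusp4. At 6 h it was at 1.84, 2.51, 1.62 and 1.25 CPM unstimulated and 12.4, 4.48, 3.54 and 4.18 CPM stimulated. The value of 12.4 CPM belongs to library 26, an NFAM1+/+ library, and the other stimulated libraries were at most at 4.48 CPM. The rise was 3.06-fold (log2 1.61, SE 0.28, adjusted p 9.22e-05), and log2 1.24 with adjusted p 0.000329 without library 26. At 24 h it was at 1.72, 3.20, 2.12 and 3.25 CPM against 3.29, 3.64, 3.87 and 3.26 CPM, a difference of log2 0.50 with a 95% interval from -0.11 to 1.10 (adjusted p 0.124). With libraries scaled to their own totals the 6 h responses of Dusp2 (log2 0.99) and Dusp4 (log2 0.88) were also under the fold threshold.

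Dusp1, which encodes MKP-1, the best known of the inducible phosphatases in macrophages, was the exception in this class. At 6 h it was at 123, 127, 106 and 105 CPM in unstimulated and at 100, 85.1, 66.6 and 56.5 CPM in stimulated libraries. Every stimulated library was below every unstimulated one, by 1.53-fold on average (log2 -0.61, SE 0.18, adjusted p 0.00601), which is under the fold threshold. Scaled to own totals of reads the difference was log2 -1.34 and was called. At 24 h the groups overlapped, with 114, 129, 111 and 82.2 CPM unstimulated and 88.0, 154, 131 and 79.8 CPM stimulated, and the difference was log2 0.02 (95% interval -0.37 to 0.40). That sign is not fixed, since quantile normalization gave -0.25 and own totals gave -0.32. On the annotation of GENCODE vM21, exons of Dusp1 overlap exons of Ergic1 on the other strand, and exons of Dusp5 overlap those of an antisense gene. Because the libraries were not stranded, reads from such overlaps cannot be told apart.

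Dusp6, which encodes MKP-3, the cytoplasmic ERK phosphatase often read as a gauge of ERK activity, fell more than any other of the 8. At 6 h it was at 24.7, 23.6, 39.3 and 44.9 CPM in unstimulated libraries, the first pair NFAM1+/+ and the second pair NFAM1-/-. The stimulated libraries held 6.51, 3.61, 3.10 and 3.76 CPM, with library 26 again the highest. The level was 7.83-fold lower with the stimulus (log2 -2.97, SE 0.15, adjusted p 8.78e-11), and log2 -3.18 without library 26. At 24 h Dusp6 was at 61.5, 51.8, 48.7 and 67.0 CPM unstimulated and at 6.03, 5.53, 5.19 and 5.18 CPM stimulated. The stimulated libraries differed little among themselves, and their level was 10.4-fold lower (log2 -3.38, SE 0.15, adjusted p 2.74e-11).

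Dusp7, the other cytoplasmic ERK phosphatase, fell less steeply. Its 6 h values were 16.4, 14.6, 23.3 and 19.8 CPM unstimulated and 9.32, 6.10, 5.83 and 5.43 CPM stimulated, 2.80-fold lower (log2 -1.49, SE 0.15, adjusted p 3.12e-07). At 24 h the values were 35.9, 28.1, 29.4 and 30.8 CPM against 14.9, 12.7, 10.8 and 17.6 CPM, 2.25-fold lower (log2 -1.17, SE 0.15, adjusted p 5.40e-06). Neither gene overlapped between stimulated and unstimulated libraries at either time, and both falls were called on every scaling.

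The responses were then compared between the times by testing the difference of the log2 fold changes, 24 h minus 6 h. The 2 members called were Dusp4 and Dusp10, against 31.4% of all genes. The Dusp10 response was smaller at 24 h by log2 -1.42 (SE 0.18, adjusted p 6.89e-06). For Dusp4 the difference was log2 -1.11 (SE 0.40, adjusted p 0.0234), but it was -0.75 with adjusted p 0.058 without library 26, and it was also not called without library 1, 4, 44 or 46 or on either other scaling. Dusp2 (log2 -0.78, adjusted p 0.0137) and Dusp1 (log2 0.63, adjusted p 0.041) differed by less than 2-fold, and with no minimum fold 65.5% of all genes had an adjusted p under 0.05. The Dusp2 difference was not under that p on the other scalings, at log2 -0.47 (adjusted p 0.138) with quantile normalization and -0.39 (adjusted p 0.172) with libraries scaled to their own totals. The Dusp1 difference was log2 0.71 (adjusted p 0.0239) with the former and, with the latter, 1.02 (adjusted p 0.00143), where it was called. For Dusp5, Dusp6, Dusp7 and Dusp16 the 95% intervals of the difference included 0 and ran from -0.24 to 0.58, from -0.87 to 0.06, from -0.15 to 0.78 and from -0.48 to 0.26.

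Levels also moved with time in culture. In unstimulated cells Dusp10 was the 1 member called, higher at 24 h by 2.03-fold (log2 1.03, SE 0.13, adjusted p 6.56e-06), against 21.0% of all genes. It fell just under the fold threshold without library 2, 4, 43 or 46, at log2 0.93 to 0.98, and with quantile normalization, at 0.88. Dusp6 (log2 0.83, adjusted p 0.000253) and Dusp7 (log2 0.76, adjusted p 0.000508) were higher at 24 h, and Dusp2 (log2 -0.71, adjusted p 0.00302) and Dusp16 (log2 -0.68, adjusted p 0.000191) lower, all by less than 2-fold. In stimulated cells Dusp2 was lower at 24 h by 2.82-fold (log2 -1.50, SE 0.18, adjusted p 2.03e-06) and Dusp7 higher by 2.11-fold (log2 1.08, SE 0.15, adjusted p 1.19e-05), 2 members against 33.5% of all genes. Without library 10 or 58 the Dusp7 difference was log2 0.93 or 0.96, under the threshold, as was the 0.88 of quantile normalization. All libraries of a time may have been prepared together, and time and such a set cannot be told apart.

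Levels of different genes can be compared only per length, so CPM were divided by the exon length of each gene in GENCODE vM21, which runs from 2.00 kb for Dusp2 to 7.80 kb for Dusp16. In unstimulated cells at 6 h Dusp1 was highest at 34.8 ± 3.33 CPM per kb (SD, n = 4). Dusp2 followed at 25.4 ± 7.19 CPM per kb, and the ranges of these neighbours over the libraries overlapped. Within libraries Dusp1 held 37.2% to 38.9% of the summed level per kb and Dusp2 21.4% to 32.5%, so Dusp1 was higher in each. Then came Dusp6 at 10.6 ± 3.38, Dusp5 at 8.78 ± 0.88, Dusp7 at 5.52 ± 1.14, Dusp16 at 4.71 ± 0.85, Dusp10 at 1.05 ± 0.16 and Dusp4 at 0.66 ± 0.19 CPM per kb. The pairs Dusp6 and Dusp5, Dusp7 and Dusp16, and Dusp10 and Dusp4 overlapped as well, and the order within each of these pairs differed between libraries. Dusp5 and Dusp16 were the higher of their pairs in both NFAM1+/+ libraries, and Dusp6 and Dusp7 in both NFAM1-/- libraries. Overlap here and below refers to ranges over libraries, not to the order within a library.

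Stimulation for 6 h changed this order. Dusp2 was highest at 82.0 ± 15.2 CPM per kb, clear of Dusp10 at 31.2 ± 1.37 CPM per kb. Dusp1 at 23.3 ± 5.90, Dusp16 at 22.6 ± 5.31 and Dusp5 at 18.2 ± 0.97 CPM per kb came next and overlapped each neighbour. Dusp4 at 2.25 ± 1.54, Dusp7 at 1.99 ± 0.53 and Dusp6 at 1.36 ± 0.49 CPM per kb formed the low end, also overlapping. At 24 h unstimulated cells had Dusp1 first at 33.0 ± 5.93 CPM per kb, clear of Dusp6 at 18.3 ± 2.71, which overlapped Dusp2 at 15.6 ± 4.97. Dusp7 at 9.26 ± 1.02 and Dusp5 at 8.47 ± 2.25 came next and overlapped each other and Dusp2. Dusp16 at 2.91 ± 0.34, Dusp10 at 2.15 ± 0.44 and Dusp4 at 0.94 ± 0.28 CPM per kb came last. In stimulated cells at 24 h Dusp1 (34.1 ± 10.6), Dusp2 (28.9 ± 4.21) and Dusp10 (23.7 ± 2.29 CPM per kb) overlapped at the top, and Dusp6 (1.75 ± 0.13) and Dusp4 (1.28 ± 0.11) were lowest.

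Summed per kb, the 2 cytoplasmic ERK phosphatases made up 12.1% to 24.2% of the transcripts of the 8 genes without and 1.60% to 2.18% with the stimulus at 6 h, and 24.4% to 38.8% and 3.55% to 5.74% at 24 h. The 2 genes of the JNK and p38 branch went the other way, from 5.44% to 7.08% unstimulated to 27.6% to 31.6% stimulated at 6 h, and from 4.75% to 6.58% to 24.4% to 32.5% at 24 h. These shares do not depend on the scaling between libraries, because each is taken within a library. The 4 nuclear phosphatases held 70.4% to 81.8% and 66.6% to 70.7% at 6 h, and 54.6% to 70.8% and 61.8% to 71.5% at 24 h.

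**Figure D3:**
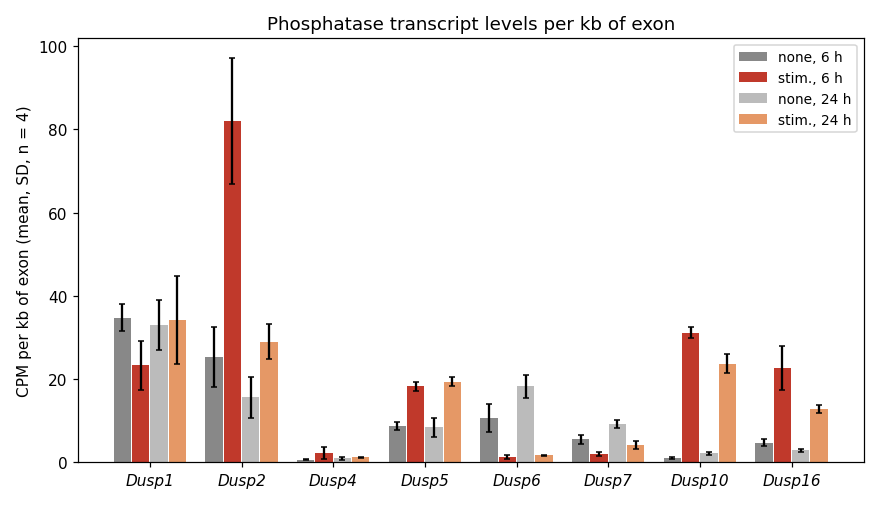
Level in CPM per kb of exon (vertical, from 0) of each gene (horizontal) in the 4 conditions, as bars for means and lines for SD over 4 libraries. Dusp2 in stimulated cells at 6 h is the highest bar at 82.0, and the Dusp6 and Dusp7 bars drop with the stimulus while the Dusp10 and Dusp16 bars rise.

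Genotype was compared at 6 h with 2 libraries per group. No member was called between NFAM1-/- and NFAM1+/+ cells, whether unstimulated (background 0.0469%, or 6 genes), stimulated (0.0%) or in the difference of the responses (0.0%). Over all genes limma gave 968, 1526 and 882 at an unadjusted p under 0.05 in these comparisons, and voom weights gave 0 called genes in each. Among the 8 members 3, 4 and 2 were at an unadjusted p under 0.05. These tests share their estimate of spread with the 24 h groups, which mix the genotypes. With the 24 h groups split by title, 11 genes were called in unstimulated cells, and with a split by title or by tag no member was called.

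In unstimulated cells all 8 members had libraries that did not overlap between the genotypes, as did 42.2% of all genes. Dusp6, Dusp7 and Dusp10 were higher in NFAM1-/- cells, and Dusp1, Dusp2, Dusp4, Dusp5 and Dusp16 lower. Dusp6 differed most, with 24.2 ± 0.78 CPM for the NFAM1+/+ and 42.1 ± 3.96 CPM for the NFAM1-/- libraries (SD, n = 2), with log2 0.79, a 95% interval from 0.33 to 1.26 and an adjusted p of 0.312. Dusp2 was at 63.2 ± 1.01 and 38.6 ± 3.90 CPM, log2 -0.72 with an interval from -1.26 to -0.17 and an adjusted p of 0.498. For the other 6 members the differences ran from log2 -0.59 (Dusp4) to 0.47 (Dusp7), with adjusted p of 0.654 or more.

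In stimulated cells 5 members, Dusp1, Dusp2, Dusp4, Dusp7 and Dusp16, were lower in both NFAM1-/- libraries than in both NFAM1+/+ libraries, and 42.4% of all genes did not overlap. The differences ran from log2 -0.96 for Dusp4 (adjusted p 0.36) to 0.05 for Dusp10 (adjusted p 0.951). How much of this rested on library 26 differed between the members. Leaving out library 26 took the Dusp1 difference from log2 -0.59 to -0.47, the Dusp2 difference from -0.40 to -0.27 and the Dusp7 difference from -0.42 to -0.12. Without it the Dusp4 difference was log2 -0.22 and the Dusp16 difference -0.15, and without library 10, the other NFAM1+/+ library, Dusp4 was called at log2 -1.70 (adjusted p 0.0302). The genotype difference for Dusp4 thus depended on which single library stood for NFAM1+/+.

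**Figure D4:**
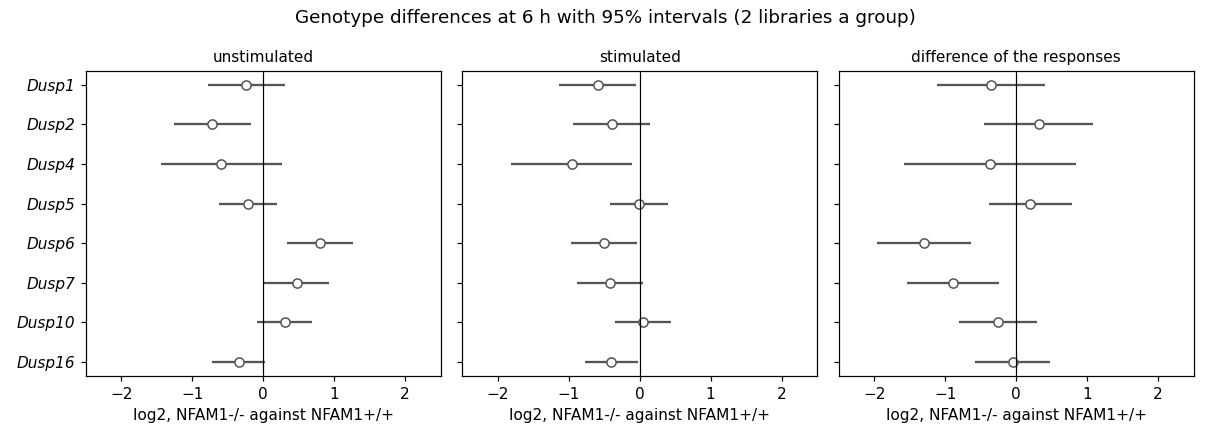
Fitted log2 difference between NFAM1-/- and NFAM1+/+ libraries at 6 h (horizontal) for each gene (vertical), in unstimulated cells, in stimulated cells and as the difference of the responses, with lines for 95% intervals. No gene was called. The interval of Dusp6 lies above 0 in unstimulated cells and below 0 in the other panels, but its difference in stimulated cells was log2 -0.08 without library 26. Intervals that also exclude 0 are those of Dusp2 and Dusp7 unstimulated, Dusp1, Dusp4 and Dusp16 stimulated, and Dusp7 for the responses.

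The response itself was next compared between the genotypes. Dusp6 fell by 2.32 on the log2 scale in NFAM1+/+ and by 3.62 in NFAM1-/- cells, and Dusp7 fell by 1.04 in NFAM1+/+ cells and fell by 1.93 in NFAM1-/- cells. The difference was log2 -1.30 for Dusp6 (95% interval -1.96 to -0.64, unadjusted p 0.000779, adjusted p 0.441, limma) and log2 -0.89 for Dusp7 (interval -1.54 to -0.24, adjusted p 0.607). Neither passed the adjustment over all genes. Without library 26 the Dusp6 difference was log2 -0.87 (adjusted p 0.538), and without library 10 it was -1.73 and called (adjusted p 0.0132). For the other 6 members the difference lay between log2 -0.37 and 0.32.

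At 24 h only 1 library per genotype and stimulus had labels that agree, so those differences have no replicate check. Between these single libraries, NFAM1-/- minus NFAM1+/+, Dusp2 differed by log2 -0.62 unstimulated and -0.51 stimulated, Dusp6 by 0.34 and 0.22, Dusp7 by 0.29 and 0.47, and Dusp1 by 0.04 and -0.57. With all 8 libraries read by title, 5 of 8 members (Dusp2, Dusp5, Dusp6, Dusp7 and Dusp10) did not overlap between genotypes in unstimulated cells, as did 45.4% of all genes, and 4 of 8 (Dusp1, Dusp4, Dusp5 and Dusp7) in stimulated cells, as did 48.2%. Read by genotype tag, the members without overlap were Dusp1 and Dusp16 unstimulated (25.5% of all genes) and Dusp2, Dusp6 and Dusp10 stimulated (29.3%). For Dusp2 in unstimulated cells the difference was log2 -0.80 by title and 0.18 by tag, so the reading of the labels decides its sign.

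The other genes of the pathway were taken from 8 lists fixed by symbol. For all of these lists, the shares over all genes tested were 19% higher and 20.5% lower at 6 h. At 24 h they were 14.6% and 18.7%, and the medians over all genes were log2 -0.13 and 0.01 at the 2 times. Of 19 other dual-specificity phosphatases and pseudophosphatases 11 were tested, of which 2 rose and 5 fell at 6 h, and 4 rose and 3 fell at 24 h, with list medians of log2 -0.77 and -0.21. Dusp8, another phosphatase of JNK and p38, rose from 0.56 ± 0.24 to 15.5 ± 7.25 CPM at 6 h (log2 4.79, SE 0.30) and from 0.59 ± 0.18 to 21.3 ± 4.16 CPM at 24 h (log2 5.21, SE 0.30; SD, n = 4). Dusp28, an atypical member, rose from 2.14 ± 0.48 to 42.5 ± 2.67 CPM at 6 h and from 3.32 ± 0.40 to 25.1 ± 0.68 CPM at 24 h. Dusp14 and Dusp18, named by the same rule, had means of at most 0.86 and 2.30 CPM, and both are among the 4 rises at 24 h. Dusp14 rose at 24 h from a mean of 0.03 CPM (log2 5.50, SE 1.10). Dusp18 was lower at 6 h (log2 -2.79, SE 0.65) and higher at 24 h (log2 1.59, SE 0.65). The fallers of this list were Dusp3, Dusp12 and Dusp22 at both times (log2 -1.60, -1.86 and -1.15 at 6 h), with Dusp18 and Dusp23 at 6 h only; here and in the lists that follow, names outside the naming rule were added after their values were seen to complete a count. Of the 2 tyrosine phosphatases of MAP kinases tested, Ptprr was called higher at both times at means of at most 1.18 CPM.

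Among the substrates of these enzymes 9 of 13 MAP kinase genes were tested, of which 2 rose and 1 fell at 6 h and 3 rose at 24 h, with medians of log2 0.02 and 0.18. Mapk9, encoding JNK2, rose from 38.2 ± 1.08 to 188 ± 11.6 CPM at 6 h and from 48.7 ± 2.15 to 99.6 ± 1.78 CPM at 24 h. Mapk13, encoding p38δ, rose from 1.05 ± 0.37 to 13.6 ± 1.77 CPM at 6 h. Mapk14, encoding p38α, was 390 ± 18.9 CPM unstimulated and 72.3 ± 4.34 CPM stimulated at 6 h, a fall of log2 -2.43 (adjusted p 4.30e-13), and 312 ± 13.7 against 197 ± 25.5 CPM at 24 h, where log2 -0.68 was under the fold threshold. Mapk11, encoding p38β, was called at 24 h only, at 0.72 ± 0.17 and 3.16 ± 0.39 CPM.

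Upstream, 1 of 6 MAP kinase kinases tested rose at 6 h and none was called at 24 h. That gene was Map2k1, the ERK kinase MEK1, at 124 ± 2.44 and 335 ± 34.2 CPM at 6 h (log2 1.43) and 125 ± 2.82 and 207 ± 6.34 CPM at 24 h (log2 0.73). With quantile normalization or with libraries scaled to their own totals, no MAP kinase kinase was called higher at 6 h, so that call was lost on both scalings. Of 14 MAP kinase kinase kinases 2 rose and 3 fell at 6 h, and 4 fell at 24 h. Map3k8, encoding TPL2, which feeds ERK signalling in myeloid cells, rose at 6 h from 41.7 ± 2.45 to 125 ± 5.60 CPM, and at 24 h was at 48.2 ± 4.11 and 47.0 ± 3.41 CPM. Braf rose at 6 h as well, from 45.3 ± 4.74 to 109 ± 14.4 CPM. Map3k1 fell at both times, from 81.6 ± 5.25 to 36.9 ± 3.26 CPM and from 153 ± 17.6 to 39.9 ± 3.37 CPM. Map3k6 fell at both times by log2 -1.70 and -2.22, and Map3k5 was called at 24 h, at log2 -1.29. Map3k14 was also lower at both times (log2 -1.01 and -1.07).

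**Figure D5:**
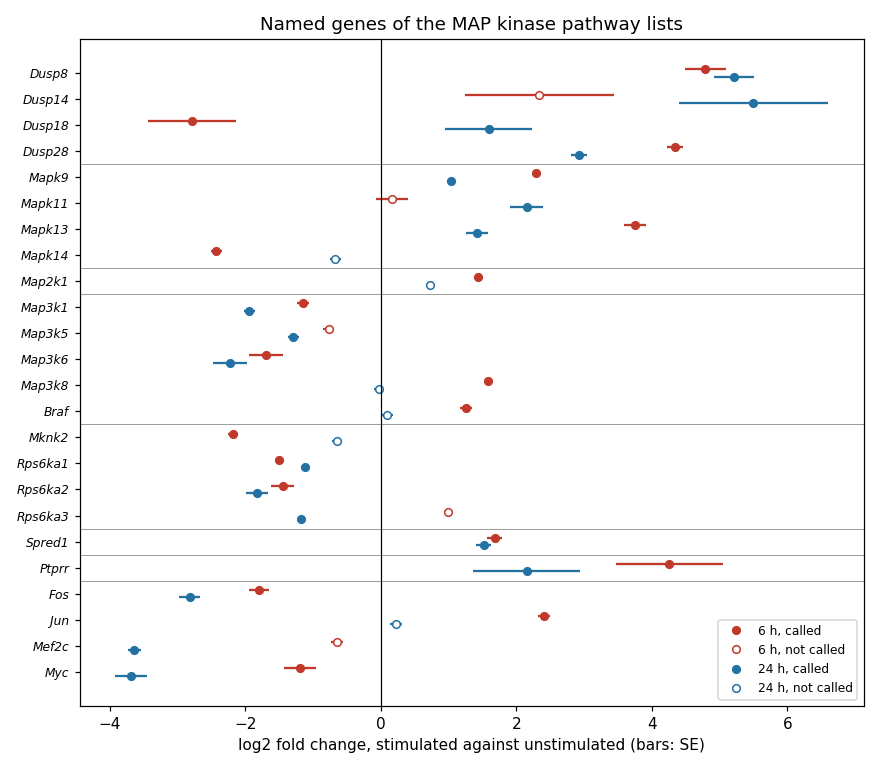
Fitted log2 fold change of stimulated against unstimulated libraries (horizontal, lines for SE) at 6 and 24 h for the named genes of the pathway lists (vertical), with grey lines between lists and filled points for called genes. Dusp8 and Dusp28 lie far to the right at both times, Fos and Myc to the left, and Jun is called higher at 6 h only.

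Downstream, 1 of 10 kinases activated by MAP kinases rose and 4 fell at 6 h, and 3 fell at 24 h, with medians of log2 -0.47 and -0.28. Rps6ka1, encoding the ERK-activated kinase RSK1, fell from 255 ± 9.24 to 89.7 ± 5.84 CPM at 6 h and from 254 ± 7.42 to 117 ± 8.82 CPM at 24 h. Rps6ka2 fell by log2 -1.45 and -1.83 at the same times. Mknk2 fell at 6 h, from 220 ± 21.1 to 48.6 ± 5.38 CPM, and Rps6ka3 fell at 24 h by log2 -1.17 after a 6 h difference of log2 1.00 that was just under the threshold. The other calls at 6 h were a rise of Rps6ka4 (log2 1.27) and a fall of Rps6ka5 (log2 -1.04). With quantile normalization or own totals 0 of these kinases were called higher at 6 h, so the Rps6ka4 call was lost on both scalings. Of 4 Sprouty and Spred inhibitors of ERK signalling tested, Spred1 alone was called, higher at both times by log2 1.68 and 1.52.

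Of 10 transcription factors that MAP kinases phosphorylate 3 rose and 2 fell at 6 h, and 5 fell at 24 h, with medians of log2 -0.36 and -0.52. Fos, an immediate-early gene of ERK signalling, fell from 143 ± 10.1 to 41.0 ± 2.10 CPM at 6 h and from 210 ± 30.7 to 30.2 ± 8.38 CPM at 24 h. Jun, the main target of JNK, rose at 6 h from 60.9 ± 3.49 to 327 ± 49.9 CPM and at 24 h was at 116 ± 9.87 and 135 ± 5.84 CPM. Myc fell by log2 -1.20 at 6 h and by log2 -3.68 at 24 h, and Mef2c was called at 24 h at log2 -3.64. Elk4 (log2 1.02) and Jund (log2 1.04) completed the rises at 6 h, and Elk3 (log2 -1.55) and Mef2a (log2 -1.25) the falls at 24 h. No called gene of these lists changed direction under quantile normalization or scaling to own totals, but both left fewer rises in some lists. At 6 h, for example, own totals left 0 in place of 2 of 14 MAP kinase kinase kinases and 1 in place of 3 of 10 transcription factors. Quantile normalization left 1 and 2 in these lists.

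The genes whose levels ran most like each phosphatase were found from the 6 group means, each centred on its own mean, among genes with a mean of at least 5 CPM. The measure is the root mean square of the 6 log2 differences, a description over 6 groups that includes the stimulus contrast. Dusp10 was closest to C130026I21Rik (0.05), Tap2 (0.09), part of the peptide transporter for class I antigen presentation, and Parp10 (0.14). Dusp16 was closest to Jdp2 (0.14), which encodes a partner of Jun, Ccdc88b (0.15) and Snx10 (0.18). Dusp5 was closest to Ncoa5 (0.07), Vamp8 (0.08) and Prpf38b (0.10), and Dusp1 to Atat1 (0.10), Atxn7l2 (0.10) and Supv3l1 (0.11). Dusp7 ran closest to Cnst (0.14), Tex2 (0.14) and Fam160a2 (0.14). Dusp2 ran closest to Aldh18a1 (0.12), Tarm1 (0.18) and Aqp9 (0.18), and Dusp6 to Prkag2 (0.23), Tmem150b (0.25) and Slc2a3 (0.28). Dusp4 was closest to Prr33 (0.24), Kmt2c (0.24) and Stk38l (0.25). Between members, Dusp4 and Dusp5 lay closest at 0.43, with Dusp2 and Dusp16 next at 0.46, and Dusp6 and Dusp10 lay farthest apart at 3.78.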

How the data were processed

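RNAseq libraries (TruSeq, polyA-selected, not stranded) were processed by the authors with STAR for alignment, Rsubread for counting and edgeR for normalization. The submitters' processing notes also name FastQC, limma and GRCm39 (mm39), without versions. The deposited values are log2 CPM, in which 0.5 was added to the reads before division by a scaled size of the library. All values gave whole reads within 0.1 read, so the depth of each library was recovered; count models were not run because the deposited unit is log2. The authors' filter on low genes is not given in the sources used here.

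One limma 3.58.1 model (R 4.3.3, variance trend, 16 libraries, 6 groups, 10 residual degrees of freedom) was fitted on the deposited log2 values for the 12782 genes that reached 1 CPM in 2 libraries or more, and 303 genes were left out. Calls needed a 2-fold change or more and p under 0.05 after Benjamini-Hochberg adjustment over all genes. At 6 h the 4 groups follow genotype and stimulus; at 24 h the 2 groups follow stimulus. The labels and methods give different IFN-γ doses, and no comparison depends on the dose. The members, lists, motifs and tests were chosen with earlier results of these data known. From each list the text names, for each time, at most 3 called genes with the largest response. Of the lists, 1 marker and 1 kinase are not reported here. The model was tested on simulated data. Alternatives were a filter at a mean of 5 CPM or none, log2 of CPM plus 1, quantile normalization, scaling to own totals of reads, voom weights, a robust prior (statmod 1.5.0), each time alone, 24 h groups by title or tag, no minimum fold, and leaving out each library. Summaries used Python 3.11.15. Promoters are RefSeq's on GRCm38.p6 and exon lengths GENCODE vM21's, which differ from the authors' build.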

Additional observations from a re-analysis of the deposited data

Results flagged for a closer look

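The response to the stimulus differed between 6 and 24 h for 4 of the 8 phosphatases at an adjusted p under 0.05 in a test of the difference itself, against 65.5% of all genes tested. The log2 difference, 24 h minus 6 h, was 0.63 for Dusp1, whose mean went from 115 to 77.1 CPM at 6 h and from 109 to 113 CPM at 24 h. It was -0.78 for Dusp2, which rose from 50.9 to 164 CPM at 6 h and from 31.3 to 58.0 CPM at 24 h, and its adjusted p was 0.138 with quantile normalization and 0.172 with own totals. It was -1.11 for Dusp4, from 1.81 to 6.16 CPM and from 2.57 to 3.52 CPM. Without library 26 the Dusp4 difference was -0.75, and on all libraries its adjusted p (limma) was 0.065 with quantile normalization and 0.11 with own totals. The log2 difference was -1.42 for Dusp10, from 3.20 to 94.8 CPM and from 6.55 to 72.1 CPM, where the unstimulated level was also higher at 24 h. In none of the 16 sets of 4 libraries at 24 h, 8 genes in 2 groups, did 1 library lie apart from the others beyond Dixon's critical value. The groups at 6 h, library 26 among them, held 2 libraries each and were not put to this test.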

How the results depend on the processing

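The called responses to the stimulus kept their direction in every alternative run, though many of the runs could not alter a given fold change. The genotype comparisons at 6 h moved most. Leaving out 1 library in turn moved the number of genes called between NFAM1-/- and NFAM1+/+ from 1 to 43 in unstimulated cells, from 0 to 81 in stimulated cells and from 0 to 15 for the difference of the responses. The numbers of members called then ran from 0 to 1 in the stimulated comparison (Dusp4, without library 10) and for the difference of the responses (Dusp6, without library 10), from 1 to 2 for the difference between the times, from 0 to 1 over time unstimulated and from 1 to 2 over time stimulated. With a lone library in a group, that library is assumed to vary like the other groups.

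With a mean of at least 5 CPM, which leaves Dusp4 untested, the genes called numbered 3275 and 2555 for the stimulus at 6 and 24 h, 2654 for the difference between the times, 1444 and 2744 over time unstimulated and stimulated, and 2 for genotype unstimulated, with 1 member called for the difference between the times. Without a minimum fold they numbered 9871, 9436, 8375, 7994, 9595 and, for genotype stimulated, 1, with 4, 5 and 6 members called for the difference between the times and over time unstimulated and stimulated. With log2 of CPM plus 1 there were 1752 genes over time unstimulated and 1 in each of the 3 genotype comparisons, with 1, 0 and 1 members in the comparisons just named, the same as with quantile normalization, which gave 3 genes for genotype stimulated. Voom weights gave 0 genes for genotype unstimulated, 24 h groups by title 11, and each time alone 4 for genotype stimulated.

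Signs that turned all belong to uncalled values, here with their range over the fits without 1 library. Dusp1 at 24 h was -0.25 with quantile normalization, -0.32 with own totals and from -0.15 to 0.17 without 1 library (below 0 without library 46, 56 or 57). The difference between the times for Dusp16 was 0.25 and 0.29 on these scalings and from -0.23 to 0.016 without 1 library (above 0 without library 4 or 26). Over time unstimulated, Dusp5 ran from -0.24 to 0.025 (above 0 without library 43 or 46) and Dusp1 from -0.18 to 0.038 (above 0 without library 46). For genotype stimulated, Dusp5 was 0.0030 with own totals and ran from -0.074 to 0.059 (above 0 without library 26 or 11), and Dusp10 from -0.022 to 0.11 (below 0 without library 10). For the difference of the responses between genotypes, Dusp16 was 0.076 with quantile normalization and ran from -0.30 to 0.20 (above 0 without library 3, 12 or 26), and Dusp4 from -1.11 to 0.37 (above 0 without library 26). The cause was not tested. No paired analysis was possible because no library number occurs in more than 1 group.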
